A study of Mus musculus with 12 samples.

Results

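The resting transcriptome described here is that of unstimulated mouse bone marrow-derived mast cells (BMMCs), the blank control of an RNA-seq study of silica particles and antigen. Its members are the 3 libraries titled Blank, Blank_1 and Blank_2, of 12 libraries in all, chosen by their label. In each of them the values of all isoforms with the same gene identifier were summed, and the genes were ranked by their mean. The cells came from the femurs of BALB/c mice and were grown with interleukin-3 (IL-3) and stem cell factor (SCF), which all 12 libraries share, and the sources used here do not give the age of the mice. Blank cells received neither SiO2 particles nor DNP-HSA, the antigen that crosslinks anti-DNP IgE on sensitized mast cells. The other 9 libraries are 3 each of cells given SiO2, DNP-HSA or both. The sources used here do not say whether Blank cells had been loaded with IgE before sequencing. Nor do the labels say whether the 3 libraries are separate cultures, so the spread between them may be technical. This is a description of 1 group, and no test was made.

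Mast cells are tissue-resident cells of the innate immune system, best known for allergy. They bind IgE through its high-affinity receptor, store proteases, amines and proteoglycans in secretory granules, and release them when antigen crosslinks the receptor. Grown from bone marrow in IL-3 and SCF, they depend on the SCF receptor, and are known to resemble immature mucosal mast cells more than those of connective tissue.

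Levels are given as FPKM, fragments per kilobase of isoform scaled to the depth of the library, with the values in the order Blank, Blank_1 and Blank_2 unless stated. Means carry the standard deviation over the 3 libraries (SD, n = 3). The table lists 28852 genes. Of these, 11183 (38.8%) had at least 1 FPKM in every Blank library, 24914 were above 0 in any of them, and 3938 were listed at 0 in all. The median of the genes at 1 FPKM or more in every library was 12.4 FPKM, 625 genes had a mean over 100 FPKM, and 42 had a mean over 1000 FPKM. The estimated counts of the libraries summed to 67839507 in Blank, 62371985 in Blank_1 and 61103909 in Blank_2. Across the 11183 genes, log2(FPKM + 1) correlated between libraries with Pearson's r from 0.940 to 0.955, a description over genes that are not independent.

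A small set of genes carried much of the RNA. The 10 highest genes held 11.98% ± 1.48 of the summed FPKM, the 100 highest 32.1% ± 2.72 and the 1000 highest 61.9% ± 1.63 (SD, n = 3). Of the 20 highest genes, 8 were encoded in the mitochondrial genome, led by mt-Co1, the first subunit of cytochrome c oxidase, at 8599 ± 1596 FPKM. Cpa3, Cma1, Fcer1a, Srgn and Tph1, genes of the mast cell granule, the IgE receptor or, for Tph1, serotonin synthesis, stood at ranks 2, 3, 11, 17 and 18. The ferritin genes Ftl1 and Fth1, which store iron, were at ranks 6 and 15, the elongation factor Eef1a1 at rank 12 and the prion protein gene Prnp at rank 13. Of the remaining 3, Gm22133 is a short miRNA model inside the Ftl1 gene, and reads of the 2 cannot be told apart. The other 2, Gm28661 and Gm10925, are chromosome 1 pseudogenes for which 100% of 100-base windows also occur in mitochondrial genes. The levels of these pseudogenes, and of the mitochondrial genes that they match, are therefore uncertain.

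**Figure D1:**
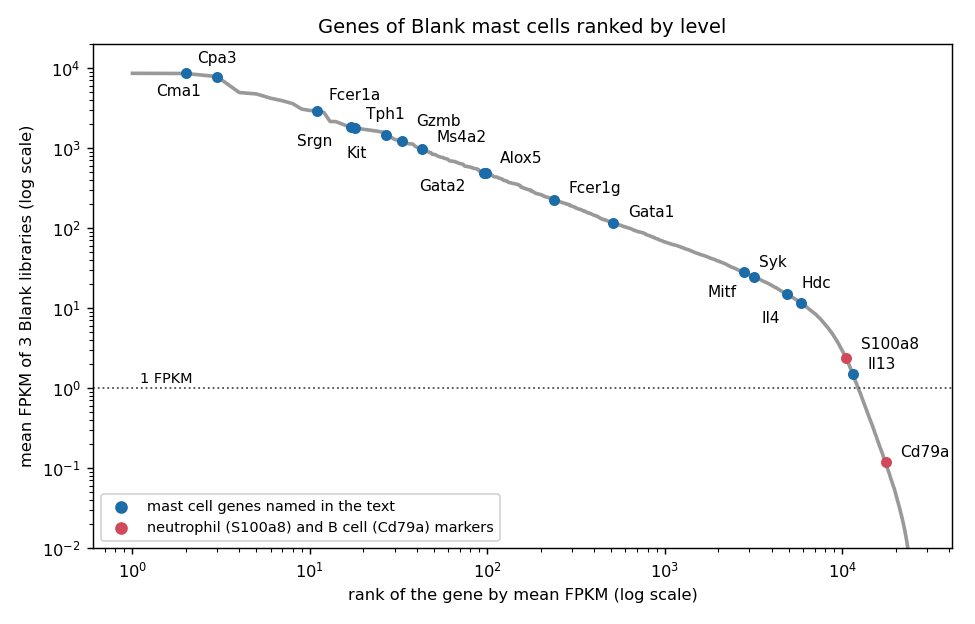
Mean FPKM over the 3 Blank libraries (vertical axis, log scale) against the rank of the gene (horizontal axis, log scale), as a grey line over all genes above 0, with genes of mast cells (blue) and markers of other cells (red) as points. Cpa3 and Cma1 sit at ranks 2 and 3, Mitf at rank 3183, and the neutrophil marker S100a8 at a mean of 2.38 FPKM.

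The 4 defining markers of the labelled cell type were all among the 50 highest genes. Cpa3 encodes mast cell carboxypeptidase A3, Kit the SCF receptor, Fcer1a the chain of the IgE receptor that binds IgE, and Ms4a2 its beta chain, which amplifies signalling. Cpa3 had 8654, 9198 and 7809.9 FPKM, a mean of 8554 ± 699.5. Kit had 1435, 1419 and 1513 FPKM and stood at rank 27. Fcer1a had 2832, 3253 and 2719.9 FPKM. Ms4a2 had 1095, 773 and 1042 FPKM and stood at rank 43, with Blank_1 the lowest. The highest library was 1.13 to 1.36 times the lowest for these 4 genes, once the median difference between libraries had been removed. Fcer1g, the shared gamma chain that carries the signal, was at 226 ± 47.0 FPKM (rank 237). The IgG receptor genes Fcgr3, which activates, and Fcgr2b, which inhibits, had 78.8 ± 14.8 and 24.0 ± 4.36 FPKM, while Fcgr1 and Fcgr4 were under 1 FPKM in every library.

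The promoters of these 4 markers are shown, since the genes define the cells and stood among the most abundant, as the 250 bases before the RefSeq start in GRCm38.p6, on the strand of the gene. Cpa3 lies at chr3:20242182-20242431 (minus strand), Fcer1a at chr1:173227230-173227479 (minus strand), Ms4a2 at chr19:11623720-11623969 (minus strand) and Kit at chr5:75574737-75574986 (plus strand). Capitals mark AGATAA, the core bound by GATA factors, TATAAA, the TATA box, and GGGCGG, the GC box, each on either strand.
Cpa3: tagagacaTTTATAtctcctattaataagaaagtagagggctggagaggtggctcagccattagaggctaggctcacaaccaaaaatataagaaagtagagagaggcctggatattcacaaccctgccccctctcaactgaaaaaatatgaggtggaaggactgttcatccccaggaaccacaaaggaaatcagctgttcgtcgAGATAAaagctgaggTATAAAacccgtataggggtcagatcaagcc
Fcer1a: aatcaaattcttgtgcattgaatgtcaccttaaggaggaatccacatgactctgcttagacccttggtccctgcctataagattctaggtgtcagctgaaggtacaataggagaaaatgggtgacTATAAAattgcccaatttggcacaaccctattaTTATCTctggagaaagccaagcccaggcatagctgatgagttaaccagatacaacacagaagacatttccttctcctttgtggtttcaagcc
Ms4a2: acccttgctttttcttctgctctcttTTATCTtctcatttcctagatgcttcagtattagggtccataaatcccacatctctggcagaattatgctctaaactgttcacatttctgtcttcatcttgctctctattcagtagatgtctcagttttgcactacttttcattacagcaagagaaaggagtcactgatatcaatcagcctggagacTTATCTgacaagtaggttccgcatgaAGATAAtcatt
Kit: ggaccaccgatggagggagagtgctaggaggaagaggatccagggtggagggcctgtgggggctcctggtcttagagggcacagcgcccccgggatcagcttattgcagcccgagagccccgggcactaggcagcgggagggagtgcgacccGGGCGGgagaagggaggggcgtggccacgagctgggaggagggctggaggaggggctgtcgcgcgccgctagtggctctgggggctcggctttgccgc
Cpa3 held AGATAA at -46 and TATAAA at -31, counted from the start, and a second TATAAA on the opposite strand at -242. Fcer1a held AGATAA on the opposite strand at -92 and TATAAA at -125. Ms4a2 held AGATAA 3 times, at -11 and, on the opposite strand, at -37 and -224. Kit held neither of these and GGGCGG at -98, and its window was the richest in G and C of the 4, at 70.8% against 38.8% to 44.4% in the others and a median of 52.4% over all windows. Of all 27025 promoters, 11.4% held AGATAA, 14.3% TATAAA and 35.4% GGGCGG in the same window. Among the 100 highest nuclear genes with a promoter the shares were 10%, 18% and 59%, and among genes with a mean of 1 FPKM or more they were 7.11%, 7.34% and 64.4%. Of the 10 granule protease genes matched, 4 held TATAAA, 2 AGATAA and none GGGCGG. A match is a description of letters, not a bound site.

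Granule proteases took 4.29% ± 0.829 of all FPKM (SD, n = 3), with nearly all of it in 4 genes. Besides Cpa3, these were the chymase Cma1, granzyme B (Gzmb) and the tryptase Tpsb2. Cma1 had 4281, 11633 and 7549.7 FPKM, so that it passed Cpa3 only in Blank_1 and was lowest in Blank. Gzmb had 1224, 1233 and 1232 FPKM, the smallest spread of any protease gene. Tpsb2 had 1076, 1139 and 865 FPKM.

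Of the 10 granule protease genes with a mean of at least 1 FPKM, 6 were highest in the library Blank, beside 34.5% of all 12280 genes at that level. None of the 6 was among the 4 abundant genes. Ctsg and Mcpt4, of the 6, were under 1 FPKM in Blank_1 and Blank_2 and reached that mean only through Blank. The count of 6 was thus partly fixed by the filter and cannot be weighed against the share of all genes. Tpsab1, the second tryptase gene, had 432 FPKM in Blank, against 27.3 in Blank_1 and 9.42 in Blank_2. Mcpt8, a protease best known from basophils, had 22.7, 2.92 and 0.811 FPKM. Cd200r3, the highest of the 4 listed basophil markers and no protease, was instead lowest in Blank, with 121, 140 and 136 FPKM. Ctsg, cathepsin G, had 11.6, 0.802 and 0.216 FPKM. Mcpt4, a chymase of connective tissue mast cells, had 9.47, 0.527 and 0.727 FPKM. Mcpt2, a chymase of mucosal mast cells, had 8.47, 4.50 and 2.71 FPKM, and the transmembrane tryptase gene Tpsg1 6.15, 3.08 and 1.95 FPKM, both again highest in Blank. Mcpt1 was at 0.362 FPKM in Blank and listed at 0 in the other two, and Mcpt9 was listed at 0 in all. Prss34, another protease best known from basophils, had 1.17, 1.32 and 0.0859 FPKM.

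These proteases lie in 2 clusters. The chymase cluster on chromosome 14 runs, in GRCm38 coordinates, from Cma1 (chr14:55941451-55944675) through Mcpt1, Mcpt9, Mcpt2, Mcpt4, Mcpt8 and Ctsg to Gzmb (chr14:56258838-56262260). Of the genes named here, the 2 outermost were the abundant ones, and the highest of those named between them averaged 8.79 FPKM. Other genes in the interval are not described here. On chromosome 17, Tpsab1 (chr17:25343245-25345562) and Tpsb2 (chr17:25366305-25369098) are close neighbours. The Blank_2 library had 865 FPKM of Tpsb2 and 9.42 FPKM of Tpsab1. The highest Tpsab1 isoform shared no 100-base window with any Tpsb2 isoform.

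**Figure D2:**
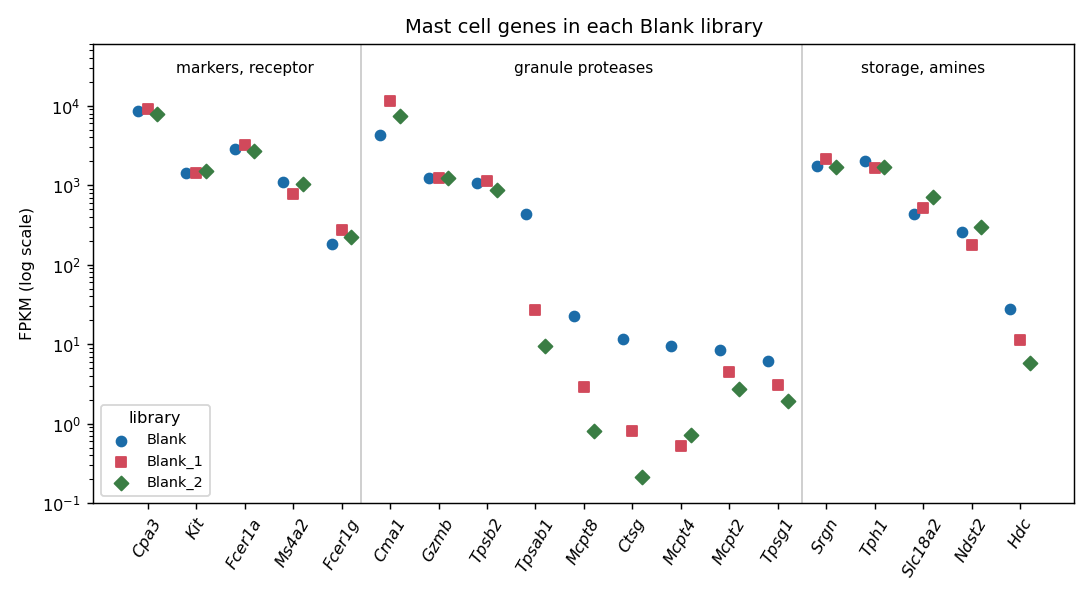
FPKM (log scale) of mast cell genes in the libraries Blank (blue circles), Blank_1 (red squares) and Blank_2 (green diamonds), 1 point a library. Markers such as Kit nearly coincide in the 3 libraries, while Tpsab1 spans 9.42 to 432 FPKM and Mcpt8, Ctsg and Mcpt4 are highest in Blank.

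Genes for storage and amines were among the most abundant. Srgn, the serglycin core protein that holds granule contents, had 1736, 2154 and 1688 FPKM. Tph1, the enzyme that starts serotonin synthesis, had 2008, 1654 and 1719 FPKM. Slc18a2, which loads amines into granules, had 429.6, 521 and 709.8 FPKM. Ndst2, which modifies heparin, had 246 ± 63.4 FPKM and its relative Ndst1 12.6 ± 4.88. Cd63, a granule membrane protein that appears at the surface on release, had 1100.0, 1548 and 1139 FPKM, and Rab27b, a small GTPase of granule transport, 199 ± 8.66. Hdc, the only enzyme that makes histamine, was far lower, with 28.1, 11.2 and 5.88 FPKM, at rank 4877 and highest in Blank. Ddc, which turns 5-hydroxytryptophan into serotonin, had 13.4, 38.1 and 45.6 FPKM, lowest in Blank. Of the 16 genes of this list, 15 had at least 1 FPKM in every library, beside 38.8% of all genes. The median of the list was 57.6 FPKM, beside 0.392 over all genes.

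Among receptors for growth factors and cytokines, Il1rl1, the receptor of interleukin-33, stood beside Kit, with 1431, 1194 and 1231 FPKM (rank 30). The beta chains of the IL-3 receptor, Csf2rb2 and Csf2rb, had 1124 ± 70.1 and 788 ± 78.4 FPKM, while the chain that binds IL-3, Il3ra, had 22.0, 22.0 and 23.0 FPKM. Csf2rb2 and Csf2rb share 7.20% of 100-base windows. Il2rg, the common gamma chain, had 143 ± 11.5 FPKM and Il4ra, the interleukin-4 receptor, 120.3, 242 and 219.6 FPKM. Il13ra1 was under 1 FPKM in every library. Of the 25 genes, 21 reached 1 FPKM in every library, beside 38.8% of all genes.

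Surface receptors that start or restrain release were mostly present, with 19 of 23 at 1 FPKM or more in every library, beside 38.8% of all genes. Mrgprb2, the receptor for cationic peptides and compound 48/80, had 56.8, 51.3 and 62.2 FPKM. The adenosine receptor gene Adora3 had 81.4, 95.1 and 67.1 FPKM. Lilrb4a, which encodes an inhibitory receptor, had 936, 385 and 1182 FPKM, lowest in Blank_1, and its highest isoform was a retained-intron model that held 48.1% of the gene, with 31.7% of its 100-base windows shared with its copy Lilr4b. P2rx7, an ATP-gated channel, had 18.3, 58.8 and 96.6 FPKM, lowest in Blank. Siglecf, a marker of eosinophils, was under 1 FPKM in every library.

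All 20 genes of proximal IgE receptor signalling were at 1 FPKM or more in every library, beside 38.8% of all genes. Their median was 95.7 FPKM. The adaptors Lat2 and Lat, which gather signalling proteins at the membrane, had 507 ± 81.8 and 225 ± 16.5 FPKM. The kinases Lyn, Syk and Fyn, which act first at the receptor, had 58.7 ± 2.95, 28.0 ± 2.42 and 9.69 ± 1.56 FPKM. Inpp5d, the lipid phosphatase SHIP that restrains the pathway, had 227 ± 11.9 FPKM. None of these 20 genes spanned 2-fold over the 3 libraries, where 16.4% of all 12280 genes with a mean of at least 1 FPKM did.

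Transcription factors of the lineage were present at a wide range of levels. Gata2, needed to form and keep mast cells, had 349, 456 and 658 FPKM (rank 96), and Gata1 117 ± 12.8. Tal1, a partner of GATA factors, had 225 ± 26.2 FPKM. Mitf, through which Kit and protease genes are known to be controlled, was far lower, at 24.7 ± 2.75 FPKM, and Spi1, the factor PU.1, had 32.9 ± 5.00. Cebpa, a factor of granulocytes, had 0.702, 1.17 and 1.82 FPKM. Of these 23 genes, 22 reached 1 FPKM in every library, beside 38.8% of all genes. A span of 2-fold was reached by 3, beside 16.4% of genes with a mean of at least 1 FPKM.

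Of the genes for enzymes of lipid mediators, Alox5, the 5-lipoxygenase, was the highest. It had 390.2, 597 and 458 FPKM, and Alox5ap, its activating protein, 63.1, 201 and 154 FPKM. Ltc4s, which makes leukotriene C4, had 27.4 ± 6.91 FPKM, and Tbxas1, the thromboxane synthase, 82.4, 128 and 109. Hpgds, the haematopoietic prostaglandin D synthase, had 81.3, 42.5 and 81.9 FPKM. Of the cyclooxygenases, the constitutive Ptgs1 had 27.0, 49.6 and 59.0 FPKM and the inducible Ptgs2 0.485, 2.76 and 0.479 FPKM.

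The cytokine and chemokine genes of unstimulated cells ranged widely in level. Il3, Il5 and Il2 were listed at 0 in every library, and Il13 had 2.18, 0.774 and 1.52 FPKM. Il4 had 13.8, 11.2 and 9.64 FPKM, Il6 24.4, 11.4 and 23.9 FPKM and Tnf 13.0, 13.2 and 19.1 FPKM. The chemokine gene Ccl2, which draws monocytes, was the highest of the list, with 281, 185 and 431 FPKM, followed by Tgfb1 with 226 ± 32.0. Ccl7, a neighbour of Ccl2, had 38.1, 6.62 and 14.5 FPKM. Of the 29 listed genes in the table, 16 were at 1 FPKM or more in every library, beside 38.8% of all genes, and 3 were listed at 0 in all.

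Markers of other blood cells were mostly near 0. None of the 14 neutrophil, 9 eosinophil, 3 B cell or 9 T and NK cell markers in the table reached 1 FPKM in every library. Of all genes, 38.8% did. The summed FPKM of the 14 neutrophil markers was 1.77 in Blank, 34.1 in Blank_1 and 1.31 in Blank_2, and that of the 15 macrophage and monocyte markers was 29.1, 108 and 38.0. All 3 neutrophil markers with a mean of at least 1 FPKM reached it only through Blank_1. That they were highest there was thus fixed by the filter. Retnlg, of the same list, was listed at 0 in all libraries. Cxcr2 and Elane were at 0.0354 and 0.751 FPKM in Blank_1 and listed at 0 in Blank and Blank_2. Others of the list were higher in Blank_1: S100a8 had 6.90 FPKM there, against 0 in Blank and 0.221 in Blank_2, and the granule genes Mpo and Prtn3 had 2.31 and 2.18, against 0.365 or less in the other two. In bulk RNA, fewer cells of a type and less RNA per cell cannot be told apart. Some markers of other lineages were not low. At 1 FPKM or more in every library were 5 of 8 megakaryocyte, 4 of 6 progenitor and 1 of 10 stromal and endothelial markers. So were 1 of 4 basophil, 1 of 9 erythroid, 1 of 9 dendritic cell and 2 of 15 macrophage and monocyte markers. The 4 basophil markers summed to 145, 144 and 137 FPKM, most of it from Cd200r3. Of these lists, Itga2b had 689 ± 95.7 FPKM, Gp1ba 166 ± 42.5, Pecam1 97.9 ± 15.1 and Cd34 183 ± 46.6. The cells that these transcripts came from were not tested. The platelet gene Ppbp was under 1 FPKM in every library, as were the endothelial genes Cdh5 and Kdr.

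The 3 libraries were not alike in everything. Deviations were taken on log2(FPKM + 1) from the mean of the gene, after the median over genes had been removed from each library (shifts of 0.07 in Blank, -0.02 in Blank_1 and -0.03 in Blank_2). Of 12280 genes with a mean of at least 1 FPKM, 283 (2.30%) spanned at least 4-fold, and are called variable here. The library farthest from the other two was Blank for 148 of them (52 high and 96 low), Blank_1 for 63 (24 high and 39 low) and Blank_2 for 72 (44 high and 28 low). Without Blank, 107 genes spanned 4-fold between the remaining libraries, without Blank_1 154 and without Blank_2 155. Of the 283, 159 had a protein-coding highest isoform, 48 a highest isoform under 200 bases, and 26 were listed at 0 in a library. Just past the limit lay Kif20a, at 4.0003-fold, and just short of it Lamp1, at 3.997-fold.

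Library Blank had more of the minor proteases above and of cell division genes. Of 24 cell cycle genes with a mean of at least 1 FPKM, 22 were highest in Blank and 22 lowest in Blank_2, where 34.5% and 31.9% of all genes took those places. Mki67, the proliferation antigen, had 51.2, 15.5 and 11.3 FPKM. Rrm2, a subunit of ribonucleotide reductase, had 34.3, 14.8 and 5.69 FPKM, and Ccnb2, a mitotic cyclin, 33.1, 17.9 and 6.07. The exceptions were Ccnd2, with 51.4, 50.9 and 54.4 FPKM, and Cdk6, with 20.6, 22.7 and 24.4, both of which act at the entry into the cycle. A range of 4-fold was reached by 4 of the 24 genes, beside 2.30% of all genes at that mean. Rad51ap1, of DNA repair, had 12.2, 3.79 and 1.01 FPKM, and the glycosyltransferase gene B3gnt2 35.2, 4.64 and 4.89.

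The same library had low levels of a set of genes found in both others. Tgm2, the tissue transglutaminase, had 7.60 FPKM in Blank, 295 in Blank_1 and 189 in Blank_2. F13a1, the transglutaminase chain of clotting factor XIII, had 0.695, 25.9 and 21.1 FPKM. Gpnmb, a lysosomal glycoprotein, had 0.0465, 34.8 and 16.6 FPKM, and the lysozyme gene Lyz2 3.04, 74.6 and 25.0. Sult1a1, a sulfotransferase, had 0.236, 16.6 and 20.4 FPKM, and Smpx, best known from muscle, 1.37, 40.7 and 37.4. H2ac18 was listed at 0 in Blank and had 54.3 and 50.9 FPKM in the other two, but 88.1% of its 100-base windows occur in its copy H2ac19, so that its level is uncertain.

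Blank_1 stood out for glycolysis, lysosomes and a few inflammatory genes. All 15 glycolysis genes were highest in Blank_1, beside 32.9% of all genes. The number was 13 with protein-coding isoforms alone, and 13 on estimated counts with TMM scaling. The muscle-type pyruvate kinase gene Pkm had 267, 776 and 305 FPKM, the phosphoglycerate kinase gene Pgk1 104, 332 and 92.0, and Ldha, lactate dehydrogenase A, 467, 802 and 382. Gapdh is an exception in level: its 10.4, 10.7 and 6.11 FPKM came mostly (79.5%) from a retained-intron model, with its coding isoforms near 0, and do not stand for the gene. Of 16 lysosomal genes, 14 were highest in Blank_1, among them Ctsd, cathepsin D (1091, 2155 and 1641 FPKM), Lamp1 (89.6, 340.2 and 176) and Ctss, cathepsin S (1.38, 18.99 and 8.27). The chemokine gene Cxcl2 had 0.235, 21.5 and 0.312 FPKM, the metalloprotease gene Mmp12 0.0488, 13.6 and 1.31, and the antagonist gene Il1rn was listed at 0 in Blank, at 7.22 in Blank_1 and at 0.173 in Blank_2. S100a9, a neutrophil and monocyte alarmin, had 9.80 FPKM in Blank_1 and was listed at 0 in both others, and the neutrophil granule gene Ngp had 6.36 FPKM in Blank_1. The summed neutrophil markers and the summed macrophage and monocyte markers given above were also highest in Blank_1. By gene the macrophage and monocyte list was split. Of its 7 members with a mean of at least 1 FPKM, 4 were highest in Blank and 3 in Blank_1. Cd14 (0.331, 7.69 and 0.467 FPKM) and Csf1r (0.0576, 1.86 and 0.215), genes of monocytes, were highest in Blank_1. Cd14 reached a mean of 1 FPKM only through Blank_1, and Csf1r did not reach it. The monocyte antigen gene Ly6c2 was highest in Blank, as were Adgre1 and Ccr2 on estimated counts. The 9 dendritic cell markers in the table summed to 4.52, 17.3 and 3.81 FPKM. The part of these cell types in the result was not tested.

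Blank_2 was high in immediate early genes, the fast response genes of stimulated cells. The summed FPKM of the 23 listed genes was 973 in Blank, 1097 in Blank_1 and 2603 in Blank_2. Of 21 such genes with a mean of at least 1 FPKM, 15 were highest in Blank_2, beside 32.6% of all genes. The lowest library was Blank_1 for 11 of them and Blank for 9, beside 34.1% and 34.0% of all genes, and 8 spanned 4-fold, beside 2.30%. Fos had 54.8, 4.30 and 279.9 FPKM, highest in Blank_2, but the library farthest from the others was Blank_1, the lowest. Egr1 had 38.6, 12.7 and 312 FPKM, and the phosphatase gene Dusp1 16.9, 2.73 and 57.5. Junb had 69.2, 152 and 465 FPKM, lowest in Blank, while Fosb had 77.7, 14.6 and 103. Btg2, an anti-proliferative gene, was highest in Blank, at 15.4, 1.76 and 3.97 FPKM. Zfp36, which destabilizes cytokine mRNA, had 9.41, 5.86 and 56.1 FPKM. The nuclear RNA Malat1 had 244, 65.2 and 490.3 FPKM, and the host gene of miR-142, Mir142hg, 50.0, 0.604 and 74.7. For Dusp1, Fosb, Malat1 and Mir142hg, as for Fos, Blank_1 was lowest and farthest from the others.

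Blank_2 further had the fewest ribosomal protein transcripts and the most mitochondrial ones. Of 84 ribosomal protein genes, 81 were lowest in Blank_2, beside 31.9% of all genes. Among the 81 were Rplp1 (1540.4, 1492 and 1006 FPKM) and Rpl32 (903, 731 and 402). The median deviation of the 84 genes was 0.25 in Blank, 0.17 in Blank_1 and -0.42 in Blank_2 on the log2 scale. Of the 13 protein genes of the mitochondrial genome, 11 were highest in Blank_2, beside 32.6% of all genes, and all mitochondrial genes together took 7.90%, 8.06% and 11.2% of FPKM. Both lists were drawn up after their values had been seen. Since chromosome 1 pseudogenes share 100-base windows with mitochondrial genes, the levels of the latter are uncertain. The widest range of the mitochondrial list was that of mt-Atp6, at 663, 640 and 3779 FPKM. Fdps, which makes farnesyl diphosphate for sterols, was lowest in Blank_2, at 87.3, 43.7 and 15.2 FPKM, as was the monocyte antigen gene Ly6c2, at 7.38, 2.42 and 0.200. Retained-intron models took 8.02%, 5.19% and 9.50% of FPKM in the 3 libraries, lowest in Blank_1 as was Malat1. The immediate early genes took 0.224%, 0.246% and 0.602% of FPKM, lowest in Blank. Their median deviation by gene was -0.17, -0.55 and 0.66 on the log2 scale, lowest in Blank_1. The part of RNA quality or processing in this was not tested.

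**Figure D3:**
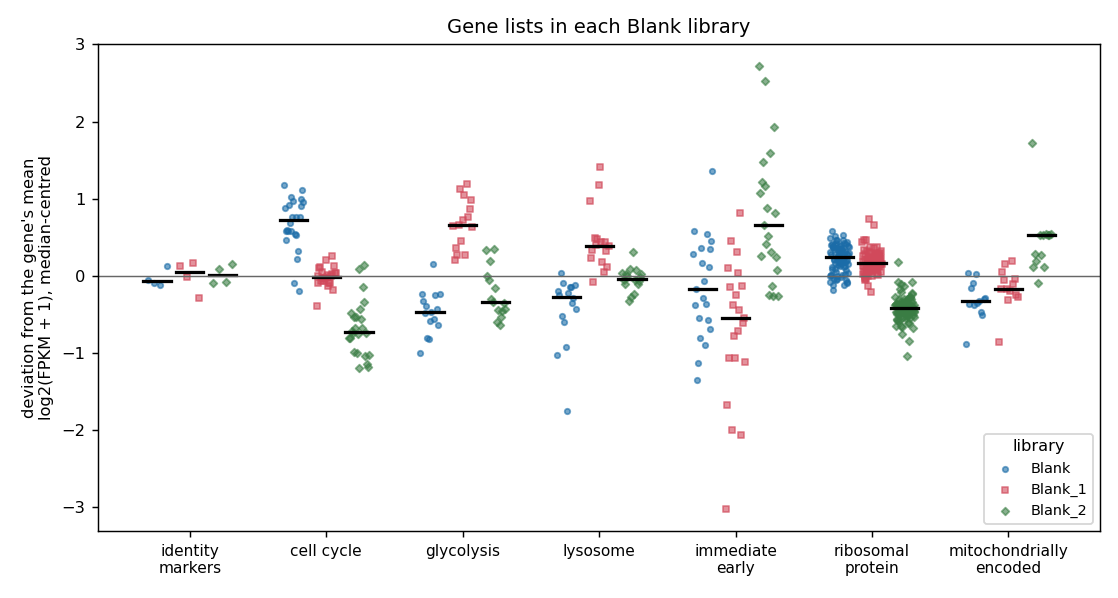
Deviation of each gene from its own mean, log2(FPKM + 1) after centring each library on its median (vertical axis), for 7 gene lists in Blank (blue circles), Blank_1 (red squares) and Blank_2 (green diamonds); black bars are medians over genes. The 4 identity markers lie near 0 in every library, cell cycle genes are highest in Blank, glycolysis genes in Blank_1, and ribosomal protein genes are lowest in Blank_2.

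Most of these sets of genes also varied together among libraries of the other 3 groups, which were not used to choose them. Each group was set on its own mean, so treatments are not compared. Of the 12280 genes, between 27.5% and 36.9% were highest and between 28.0% and 38.4% lowest in any 1 of the 9 libraries. Of the 52 genes high in Blank, 49 were highest in the library titled SiO2, 44 in HSA and 48 in SiO2_HSA, each the unnumbered library of its group. Of the 96 genes low in Blank, 86, 89 and 84 were lowest in these same libraries. Of the 24 genes high in Blank_1, 20 were highest in SiO2_1, 20 in HSA_2 and 17 in SiO2_HSA_2, and of the 39 low in Blank_1, 29, 26 and 29 were lowest there. Of the 28 genes low in Blank_2, 23 were lowest in SiO2_2, 20 in HSA_1 and 18 in SiO2_HSA_1. The 44 genes high in Blank_2 did not keep to these libraries: 25 were highest in SiO2_2, 19 in HSA_1 and 17 in SiO2_HSA_1, with 20 highest in SiO2_HSA. The numbers in the titles thus did not run together across groups.

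Several gene lists followed the same order. The 24 cell cycle genes were highest in SiO2, HSA and SiO2_HSA for 21 genes each, and the 15 glycolysis genes in SiO2_1, HSA_2 and SiO2_HSA_2 for 13, 14 and 12. The 84 ribosomal protein genes were lowest in SiO2_2, HSA_1 and SiO2_HSA_1 for 82, 82 and 81. The immediate early genes did not keep to it, being highest in SiO2 for 17 of 21, in HSA_2 for 15 and in SiO2_HSA for 17. Mitochondrial genes kept to it in part: of 13, 7 were highest in SiO2_2, 8 in HSA_1 and 8 in SiO2_HSA_1. In SiO2 6 were highest, and in SiO2_HSA 5. No label names a batch, culture or day that these libraries share, and what sets them apart cannot be told from the labels.

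**Figure D4:**
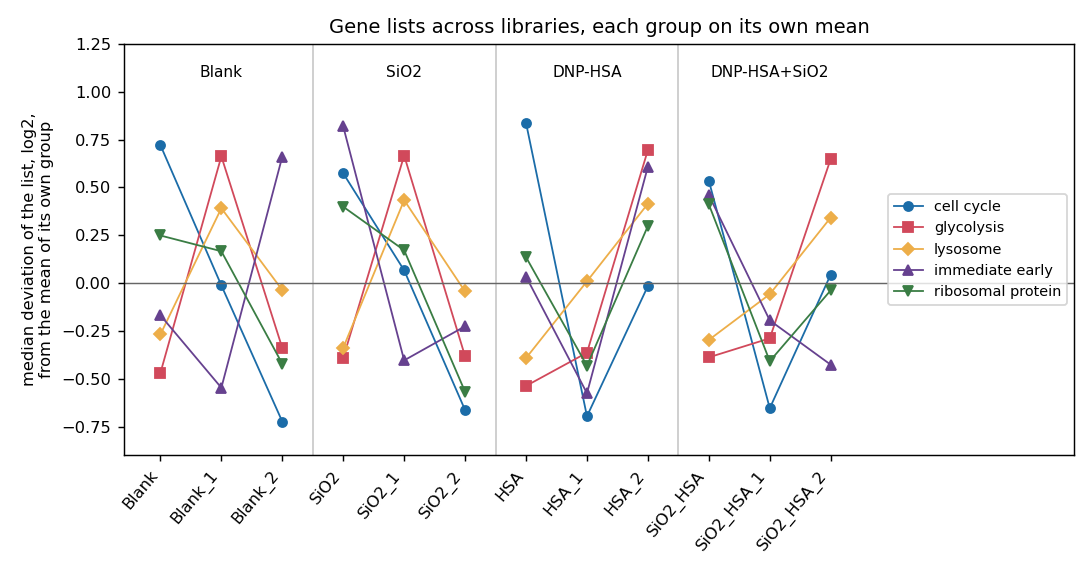
Median deviation of 5 gene lists (log2, vertical axis) in each of the 12 libraries (horizontal axis), with every group set on the mean of its own 3 libraries; lines join libraries of a group and carry no order. In each group 1 library has the most cell cycle RNA (0.54 to 0.84) and another the most glycolysis RNA (0.65 to 0.70).

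Most genes kept the same main isoform. Of 9838 genes with a mean of at least 1 FPKM and several isoforms, 7100 (72.2%) had the same highest isoform in the 3 libraries. Over all 9838, the highest isoform held a median of 69.1% of the FPKM of its gene, and in 554 (5.63%) it was a retained-intron model. Cpa3 was nearly all Cpa3-201 (99.2%), with 11 exons, and Fcer1a was 92.0% Fcer1a-201. Kit was spread over Kit-204, with 21 exons, at 733, 663 and 691 FPKM, the similar Kit-201 at 282, 309 and 319, and the retained-intron model Kit-205 at 392, 435 and 469. Ms4a2 was shared by Ms4a2-204 (47.4%) and Ms4a2-202 (44.8%), with Ms4a2-202 the higher in Blank_1. Il1rl1 was mostly Il1rl1-201 (75.3%), which begins about 11 kilobases downstream of Il1rl1-205 (18.1%).

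The main isoform of Gata2 differed between libraries. Gata2-201, which begins at position 88198334 of chromosome 6, took 84.7% of Gata2 FPKM in Blank, 13.9% in Blank_1 and 82.9% in Blank_2. Gata2-202, which begins upstream at position 88193891, took 7.17%, 82.4% and 5.99%. The summed level of Gata2 differed by 2.02-fold after the median difference between libraries had been removed. In the other groups Gata2-202 took 87.3% in SiO2_HSA_2, 50.0% in HSA and 38.4% in SiO2_1, and 2.81% to 7.04% in the other 6 libraries. Isoforms that share most exons are told apart by few reads, and these shares are estimates of the assembler.

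**Figure D5:**
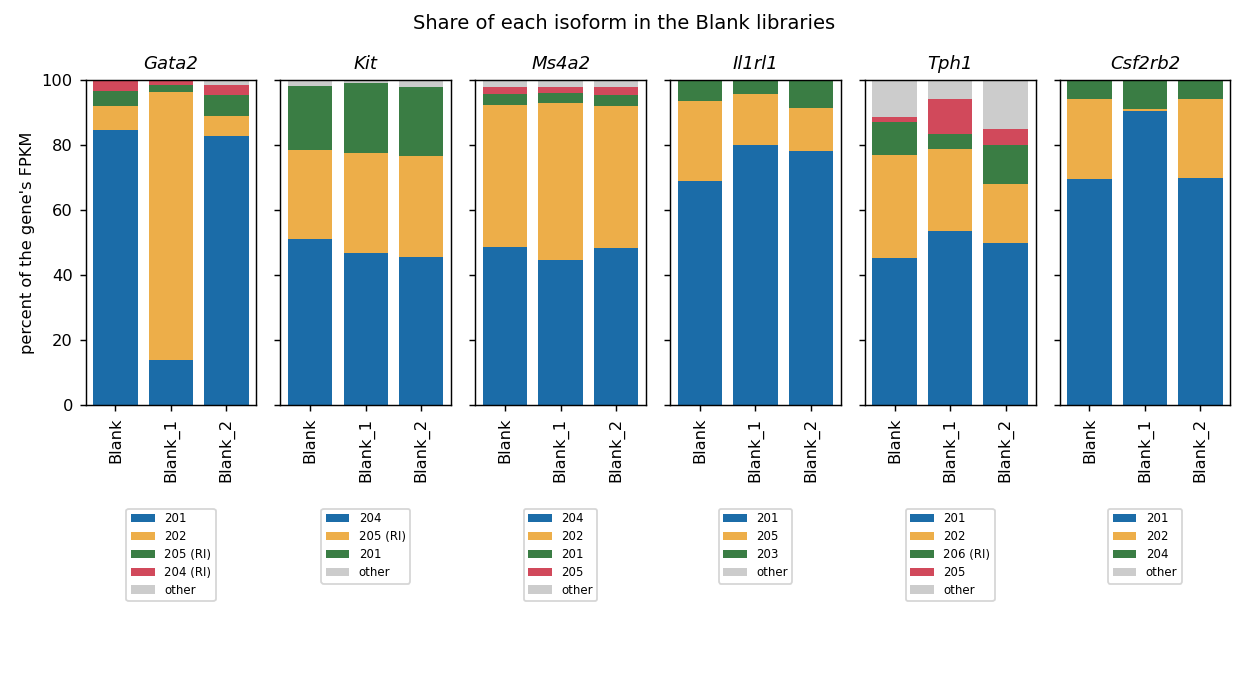
Percent of the FPKM of 6 genes (vertical axis) held by each isoform in Blank, Blank_1 and Blank_2, as stacked bars; RI marks retained-intron models and grey the remaining isoforms. Ms4a2-204 holds 44.6% to 48.6% of Ms4a2 and Kit-204 45.6% to 51.1% of Kit, whereas Gata2-202 holds 82.4% of Gata2 in Blank_1 and under 8% in the other two.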

How the data were processed

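RNA of BMMCs in 4 groups of 3 libraries was sequenced as paired reads of 150 bases after poly(A) selection. Per the labels the libraries were made with dUTP, which marks strand. Per the submitters' processing notes, the tools were StringTie 1.3.4d, HISAT2 2.0.4 and cutadapt 1.9, with edgeR and DESeq2 also listed, and no role is stated. The authors deposited 84846 isoforms, which belong to 28852 genes, each with an FPKM and an estimated count in every library. The sources used here do not name the genome build; 84070 isoforms lie at the coordinates of GENCODE M21 (GRCm38). The deposited estimated count equals the product of FPKM, length and 1 factor per library (69.5 to 76.8), rounded up, so it was used only for totals and as an alternative.

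FPKM were summed per gene identifier; 43 symbols have several identifiers, and the highest was used in lists. Expressed means at least 1 FPKM. Deviations used log2(FPKM + 1), which understates differences of low genes, less the library median. With 3 libraries of 1 group there is no comparison to test and no p-value is given; their number limits the precision. Scripts were tested on simulated data. Promoters are RefSeq windows (GRCm38.p6) matched by symbol for 8671 genes with a mean of at least 1 FPKM.

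The libraries, markers and 25 gene lists were chosen with earlier results of these data known; 2 further lists (ribosomal protein and mitochondrially encoded genes) were added after their values were seen. Named were the 20 genes of highest mean FPKM, any member of a list and, for each library and direction, up to 8 variable genes of the widest range, leaving out provisional symbols and pseudogenes. Some listed genes are not reported here. Python 3.11.15, pandas 2.3.3, numpy 2.4.6 and matplotlib 3.10.9 were used, and edgeR 4.0.16 in R 4.3.3 for TMM scaling only. Alternatives without isoforms under 200 bases, with protein-coding isoforms alone or without genes listed at 0 were chosen after seeing the data.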

Additional observations from a re-analysis of the deposited data

How the results depend on the processing

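The 10, 100 and 1000 highest genes held 9.66%, 27.3% and 58.5% of FPKM without mitochondrially encoded genes, and 7.73%, 23.3% and 54.2% of the estimated counts, which are not per length. With the highest isoform only in place of the sum, 2 of the 4 markers stayed among the 50 highest genes, since Kit (rank 53) and Ms4a2 (rank 84) are split over isoforms. The count of variable genes depended most on the setting. It was 723 with a pseudocount of 0.1, 594 after rescaling to TPM, which raises the values of all genes against the same limits, 426 on estimated counts with TMM scaling, 180 at a mean of at least 5 FPKM and 2016 at a range of 2-fold. Leaving out each library gave 107 to 155, by its construction, since a range over fewer libraries is smaller. Of the 283 variable genes, 283 were also variable after rescaling to TPM, 210 with TMM scaling and 140 with protein-coding isoforms alone. The number of expressed genes ranged between 7788 at 5 FPKM and 15170 at 0.1 FPKM. Of 93 alternatives of single genes and list positions, 86 stayed within their spread or within 1.5 times the main count, and 7 moved, all of them ranks or levels of Cpa3, Kit and Ms4a2. The positions of the cell cycle, glycolysis, lysosome, immediate early, ribosomal protein and mitochondrial lists were the same under each scaling, pseudocount and isoform filter run, to within 6 genes. No paired analysis was possible because only 1 group was described. Genes with a mean under 1 FPKM rest on few fragments. Their values are given as listed, but they enter no count of variable genes or of the library in which genes were highest or lowest.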

Other observations

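Some genes hardly varied between the Blank libraries. Among genes with a mean of at least 100 FPKM, the smallest ranges were those of Vasp (107.8, 100.4 and 100.0 FPKM), Tln1 (209, 197 and 200.6) and Lcp2 (109, 99.1 and 102), which act on the actin cytoskeleton and, for Lcp2, in signalling below the IgE receptor. In 55 genes with a mean of at least 20 FPKM the highest isoform differed between libraries while holding over 60% of the gene in each, with Gata2, Rps26 and Ppp1ca the most abundant. These genes were chosen after their values were seen.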
